A study of Mus musculus with 21 samples.

Results

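The replication-dependent histone genes were defined as all gene symbols that begin with Hist1h, Hist2h, Hist3h or Hist4h, which gave 68 of the 24322 symbols in the deposited tables. They comprised 6 linker histone (H1) genes, 18 H2A genes, 19 H2B genes, 12 H3 genes and 13 H4 genes. By the symbols, 54 lay in the Hist1 cluster on chromosome 13, 10 in Hist2 on chromosome 3, 3 in Hist3 on chromosome 11 and 1 in Hist4 on chromosome 6. The RNA came from GFP-positive cells, labelled neural stem/progenitor cells, isolated by fluorescence-activated sorting out of brain tissue of C57BL/6 mice that carried a Nestin-EGFP reporter, in which Nestin regulatory sequence drives the green fluorescent protein. Pregnant mice had received oral valproic acid (VPA, an antiepileptic drug that inhibits histone deacetylases) at 300 mg/kg per day, or methylcellulose as the control, on embryonic days 12, 13 and 14. The 7 groups had 3 libraries each. They were control and VPA at embryonic day 15 (E15, forebrain), control and VPA at postnatal day 5 (P5, dentate gyrus of the hippocampus), and control, VPA and VPA with running at 12 weeks of age (dentate gyrus). No library came from running mice without VPA, and the change from E15 to P5 was also a change of tissue, so age and tissue cannot be told apart there.

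Histone genes of this kind supply the core histones H2A, H2B, H3 and H4 and the linker histone H1 that package new DNA during S phase. Their genes have no introns in most cases, and most of their mRNAs end just after a conserved stem-loop that is bound by the stem-loop binding protein Slbp, in place of a poly(A) tail. Polyadenylated forms of some members are known from differentiated and non-dividing cells, Hist1h1c, Hist1h2bc and Hist2h2be among them. The libraries here were made from poly(A)-selected RNA, so the values describe the polyadenylated or otherwise bead-bound share of each transcript and not its total.

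The stem-loop was searched on the coding strand after the stop codon, as GG, NN, CTT, N, T, N, AG, NN and CC joined in that order (N is any base), in the GENCODE vM21 transcripts (GRCm38, the build also called mm10). It was found in 46 of the 68 members, in 8 forms. The lines give 1 member for each form and 3 more that carry much of the signal, 5′ to 3′, with the stem-loop in capitals and 5 flanking bases on each side in lower case.
Hist3h2ba: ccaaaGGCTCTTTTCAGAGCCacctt
Hist3h2a: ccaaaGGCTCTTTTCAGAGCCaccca
Hist1h1c: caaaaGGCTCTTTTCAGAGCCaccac
Hist1h2ac: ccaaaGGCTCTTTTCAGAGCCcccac
Hist1h2bb: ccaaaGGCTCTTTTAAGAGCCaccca
Hist2h2ac: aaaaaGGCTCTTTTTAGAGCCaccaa
Hist1h3g: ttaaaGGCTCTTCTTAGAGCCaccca
Hist1h4c: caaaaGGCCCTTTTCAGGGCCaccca
Hist1h4i: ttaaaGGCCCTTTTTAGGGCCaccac
Hist1h4b: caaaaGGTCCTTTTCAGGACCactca
Hist1h4a: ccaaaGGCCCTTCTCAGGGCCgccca

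These lay at chr11:58949344-58949369 (+) for Hist3h2ba, chr11:58955167-58955192 (+) for Hist3h2a, chr13:23739507-23739532 (+) for Hist1h1c, chr13:23683472-23683497 (-) for Hist1h2ac and chr13:23747198-23747223 (+) for Hist1h2bb. The others lay at chr3:96220413-96220438 (-) for Hist2h2ac, chr13:23535884-23535909 (+) for Hist1h3g, chr13:23698084-23698109 (-) for Hist1h4c, chr13:22040961-22040986 (-) for Hist1h4i, chr13:23757361-23757386 (+) for Hist1h4b and chr13:23760795-23760820 (-) for Hist1h4a. All 11 were in the 3′ untranslated part of an annotated exon. The form of Hist1h1c was shared by 26 members, of which 3 were H1, 10 H2A, 8 H2B and 5 H3 genes. The form of Hist1h4c was found in 7 members, all of them H4 genes, and the 4 forms shown for Hist1h4c, Hist1h4i, Hist1h4b and Hist1h4a were found in H4 genes alone.

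The annotated transcript went on past the stem-loop by very different lengths. It ended 23 bases after it in Hist1h2bb and 28 bases after it in Hist1h4b, but 169 bases after it in Hist3h2ba, 840 in Hist1h1c, 1643 in Hist3h2a and 2010 in Hist1h2ac. In all, 23 members had 100 or more annotated bases after the stem-loop, 23 had fewer, and 22 had no match in their annotated sequence. The last group held Hist1h2bc and Hist2h2be, as well as members whose gene model ends at or near the stop codon.

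Promoter sequence could be matched for 61 members (RefSeq, GRCm38.p6). Within the 250 bases before the start, on either strand, CCAAT was present in 50 of the 61 (82.0%), against 34.5% of 27025 promoters of the same length. It was in all 5 H1, 18 H2A and 16 H2B promoters matched, in 8 of 10 for H3 and in 3 of 12 for H4. TATAAA was present in 28 (45.9%, against 13.0%), and the octamer ATTTGCAT in 13 (21.3%, against 1.61%), of which 7 were H2A and 6 H2B genes. The sequences of 4 members are shown, of which 2, Hist3h2ba and Hist3h2a, gave the highest levels. Hist1h1c gave the largest difference between control P5 and control 12 weeks on the log2(FPKM + 1) scale, though not the largest ratio. The sequence of Hist1h2ac is also the start region of Hist1h2bc, which is transcribed the other way. Capitals mark these motifs on either strand.
Hist3h2ba: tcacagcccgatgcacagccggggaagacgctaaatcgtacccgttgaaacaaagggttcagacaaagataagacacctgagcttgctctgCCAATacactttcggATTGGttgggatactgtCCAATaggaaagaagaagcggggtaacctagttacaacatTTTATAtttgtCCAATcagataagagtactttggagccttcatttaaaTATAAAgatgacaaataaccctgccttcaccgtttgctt
Hist3h2a: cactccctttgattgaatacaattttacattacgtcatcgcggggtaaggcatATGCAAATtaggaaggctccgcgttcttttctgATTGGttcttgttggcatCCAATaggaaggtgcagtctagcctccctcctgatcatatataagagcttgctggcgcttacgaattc
Hist1h1c: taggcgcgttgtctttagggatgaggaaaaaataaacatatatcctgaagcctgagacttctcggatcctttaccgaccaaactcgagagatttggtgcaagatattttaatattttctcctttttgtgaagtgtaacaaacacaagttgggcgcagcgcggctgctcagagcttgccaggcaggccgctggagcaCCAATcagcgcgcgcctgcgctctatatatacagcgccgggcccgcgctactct
Hist1h2ac: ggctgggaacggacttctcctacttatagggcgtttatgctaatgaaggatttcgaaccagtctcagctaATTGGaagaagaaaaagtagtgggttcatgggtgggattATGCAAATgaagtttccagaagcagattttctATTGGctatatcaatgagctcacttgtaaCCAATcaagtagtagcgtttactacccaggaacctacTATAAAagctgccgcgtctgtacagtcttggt

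These were chr11:58948661-58948910 (+) for Hist3h2ba, chr11:58954513-58954684 (+) for Hist3h2a, chr13:23738557-23738806 (+) for Hist1h1c and chr13:23683960-23684198 (-) for Hist1h2ac. Those of Hist3h2a and Hist1h2ac stop where the next member begins, which is Hist3h2bb-ps at 58954512 and Hist1h2bc at 23684199. A match describes letters in this window and is no evidence of binding.

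Counting of these genes has limits of its own. The coding sequences are close copies, and 10 members share an identical coding sequence with another member. The share of a member's transcript 50-base words found in no other member had a median of 53.6% (98.9% for H1, 27.0% for H2A, 59.9% for H2B, 42.8% for H3 and 60.5% for H4), and it was under 50% in 30 members. In the annotation 24 members overlap another gene, 21 of them one on the opposite strand, and no strand was stated for the libraries. Every H2A member is among these 21, and of the H2B members Hist2h2bb alone. Values of a single member from these groups are therefore uncertain, since reads may have been split among copies or shared with a neighbour.

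Values are FPKM, fragments per kilobase of transcript scaled to the mapped fragments of the library. Levels of different genes are thus given per length, and comparing them between members has the limits of counting just named. Column sums ran from 465610 to 574594 in the 21 libraries. At E15 a library had 16116 to 16734 genes above 0, while the range was 17251 to 17601 for P5 and 12019 to 15210 for 12 weeks. Depth is not given in the tables. From the value steps of low genes it was 0.564 to 2.12 times that of control E15 replicate 1, with 10 to 28 genes behind each estimate at 12 weeks, and no interval was built on it. Nes, the gene of the sort marker, was at 7.86 to 20.1 FPKM in every library. One library stood apart: the summed choroid plexus markers were 11144 FPKM in VPA E15 replicate 3, against 11.3 to 155 in the control and 35.9 to 63.3 in the other VPA libraries of that age. Running replicate 3 had the fewest genes above 0 (12019) and 27.7% of its sum in small RNA genes, against 12.9% to 19.4% in the other 20 libraries.

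The members together made up 0.0774% to 0.226% of a library's summed FPKM. Their sum was 653 ± 67.6 in control E15 (SD, n = 3 as for all groups), 604 ± 19.7 in VPA E15, 446 ± 29.9 in control P5, 385 ± 3.38 in VPA P5, 1082 ± 82.1 in control 12 weeks, 1018 ± 129 in VPA 12 weeks and 1028 ± 159 in VPA with running. The 9 libraries at 12 weeks lay between 892 and 1205, above all 12 libraries of the younger ages, which lay between 381 and 730. Of the 68 members, 42 were above 0 in all 21 libraries, 20 were at 1 FPKM or more in all of them, and 5 were below 1 FPKM in each.

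**Figure D1:**
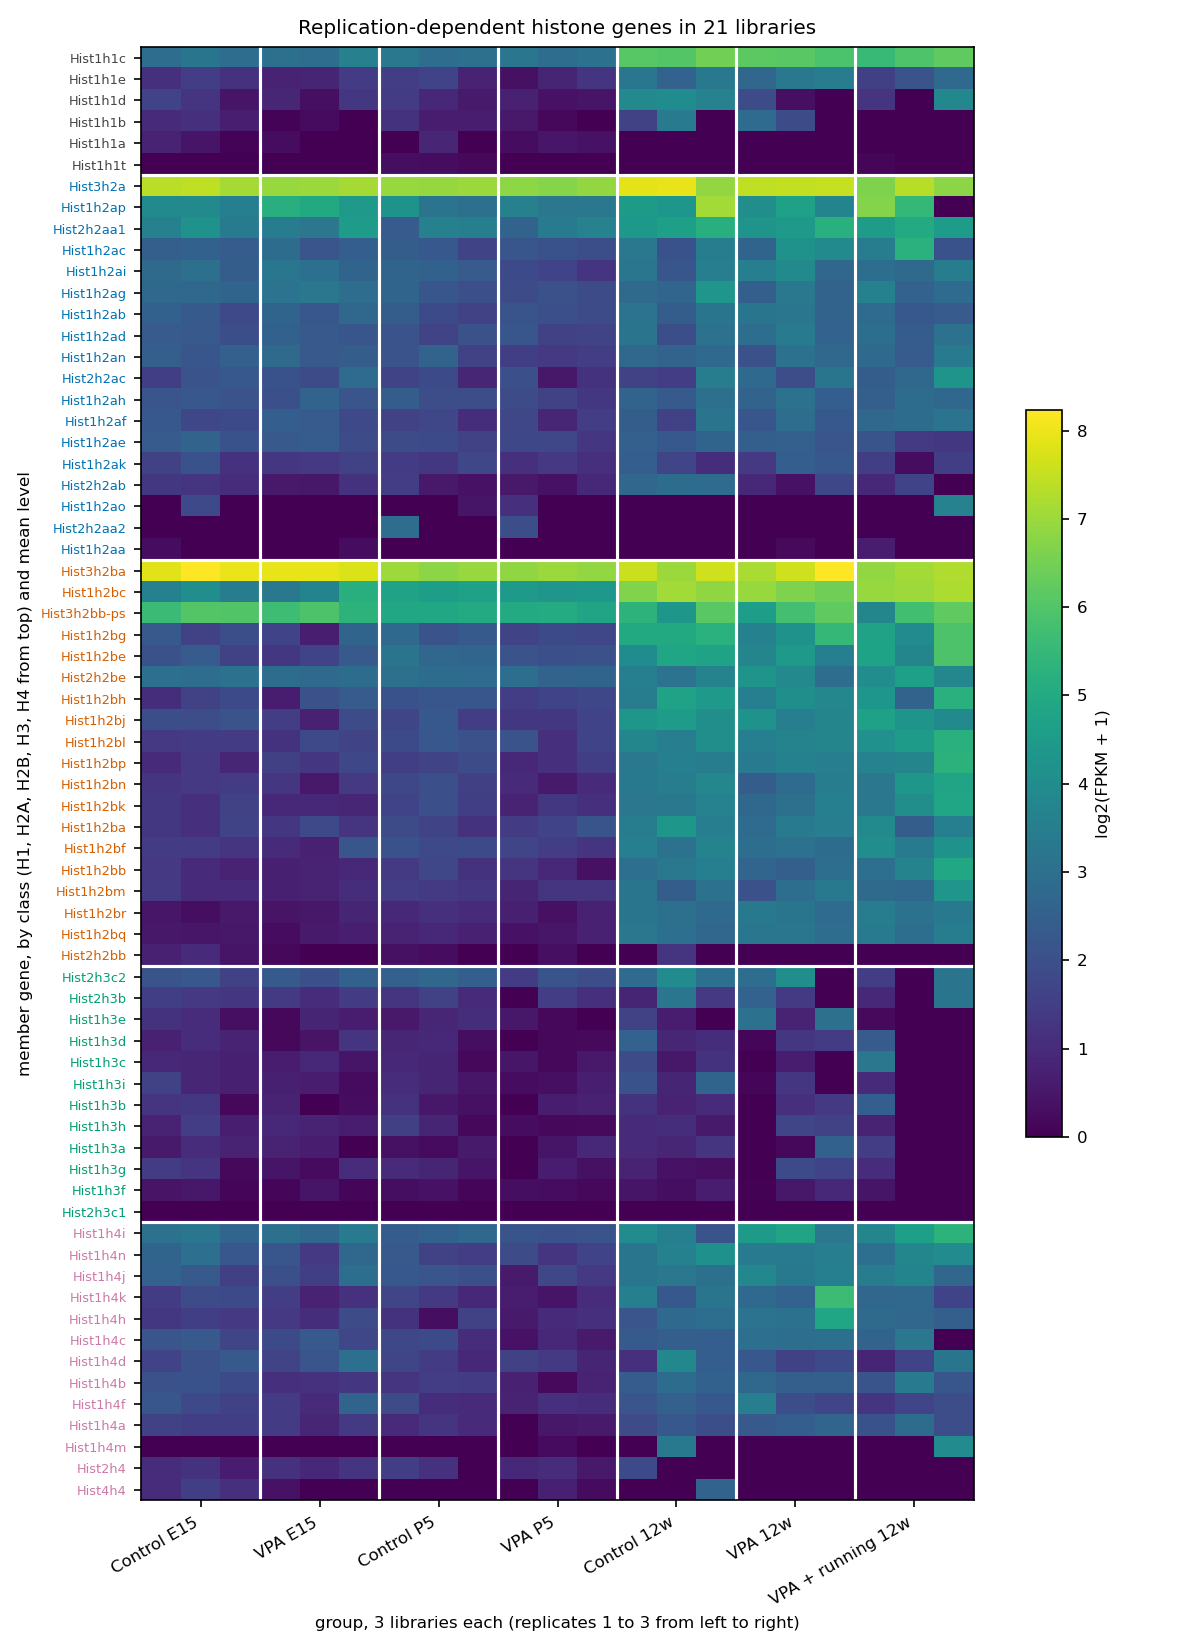
Level of each of the 68 members (rows, grouped by class H1, H2A, H2B, H3 and H4 from the top and ordered by mean level within a class) in the 21 libraries (columns, 3 per group), as log2(FPKM + 1). Hist3h2ba and Hist3h2a are bright in every library, and most H2B rows and Hist1h1c are brighter in the 9 libraries at 12 weeks.

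The Hist3 cluster led at the younger ages. Hist3h2ba, an H2B gene at chr11:58948920-58949533 (+), was at 233, 293 and 255 FPKM in control E15, 130, 109 and 124 in control P5 and 189, 126 and 197 in control 12 weeks. Hist3h2a, the neighbouring H2A gene at chr11:58954685-58956830 (+), was at 164, 174 and 137, then 124, 121 and 126, then 237, 249 and 118 FPKM. The annotated span of Hist3h2a overlaps Trim17 on the same strand. Hist3h2bb-ps, annotated as a processed pseudogene at chr11:58954048-58954512 (-), averaged 43.9 FPKM over the 21 libraries. Genes outside Hist3 held 26.8% of the members' sum in control E15, 38.3% in control P5 and 61.4% in control 12 weeks. At 12 weeks most of the histone signal thus came from outside the Hist3 cluster, and at E15 most came from within it.

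Outside Hist3, Hist1h2bc (H2B, chr13:23684199-23692908, +) averaged 61.3 FPKM and Hist1h1c (H1, also called H1.2, chr13:23738808-23740367, +) 32.9 FPKM over the 21 libraries. Both are members with known polyadenylated transcripts. The third such gene, Hist2h2be, averaged 9.44 FPKM. The next H1 genes were Hist1h1e at 3.49 and Hist1h1d at 3.29. Among H2A genes Hist1h2ap followed Hist3h2a with 26.7 and Hist2h2aa1 with 17.2 FPKM. Only 6.93% of the 50-base words of Hist1h2ap are its own, and its coding sequence is that of Hist1h2ao. H3 genes were the lowest class by far in leading level, with Hist2h3c2 at 4.93, Hist2h3b at 2.06 and Hist1h3e at 1.22 FPKM. No H3 gene was above 0 in all 21 libraries, and all 12 were at 0 in running replicate 2. The leading H4 genes were Hist1h4i at 10.9, Hist1h4n at 6.72 and Hist1h4j at 5.80 FPKM. These 3 H4 genes differed by less than the spread over libraries at 12 weeks, where Hist1h4i alone ran from 3.31 to 38.6.

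By class, the members outside Hist3 were led by H2B at 12 weeks. Their H2B sum was 42.9, 45.5 and 41.8 FPKM in control E15, 72.8, 69.03 and 64.5 in control P5 and 279, 346 and 329 in control 12 weeks, 3 ranges that did not overlap. The H1 sum was 11.9, 12.9 and 9.01, then 13.9, 11.5 and 9.20, then 91.6, 93.3 and 108, so it differed from the younger ages at 12 weeks alone. The H4 sum was 37.6, 41.7 and 29.8, then 27.3, 22.2 and 19.3, then 63.3, 82.4 and 67.9, lowest at P5. H2A outside Hist3 summed to 73.0, 83.1 and 59.5, then 69.4, 53.6 and 44.4, then 113, 87.9 and 268, where the last library is the one with 134 FPKM of Hist1h2ap. The H3 sum stayed low, at 14.8, 15.3 and 7.55, then 14.4, 13.7 and 8.78, then 24.6, 29.0 and 19.98. Of the 4 core histone classes H3 had the lowest sum in each of these 9 libraries.

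Replicate spread of the members was above that of genes of 1 to 10 FPKM at the younger ages and below it at 12 weeks. The median coefficient of variation over 3 libraries was 24.8% for the members, 8.79% for all genes and 12.2% for genes of 1 to 10 FPKM in control E15 (means of at least 1 FPKM), and 26.5%, 7.0% and 11.2% in control P5. At 12 weeks it was 29.9%, 25.2% and 42.5% in the controls and 50.7%, 36.4% and 77.4% with running. Hist1h2ap was among the most variable, at 103, 44.0 and 0.000714 FPKM in the 3 running libraries and 21.2, 18.9 and 134 in the 3 controls of that age.

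Between P5 and 12 weeks in the dentate gyrus, control libraries gained histone transcripts, above all of H2B and H1. Of the 68 members 60 passed the filter for the fit (at least 1 FPKM in at least 3 of the 21 libraries), 56 of these were higher and 4 lower at 12 weeks, and 25 rose and 0 fell (limma on log2(FPKM + 1), Benjamini-Hochberg adjusted p under 0.05). Over all 14662 genes tested, 7.26% rose and 5.35% fell, and 46.3% were higher. In 34 of the 60 members all adult libraries lay above all P5 libraries, where this held for 18.4% of all genes. The calls comprised 15 of 18 H2B genes tested, 3 of 4 H1 genes, 3 of 16 H2A genes, 4 of 12 H4 genes and 0 of 10 H3 genes. The median log2 difference of the members was 0.97, and that of all genes was -0.04. Of the 25 called members 23 had means of at least 1 FPKM at both ages. The other 2, Hist1h2bq and Hist2h2ab, were below 1 FPKM on average at P5. By a separate count, 8 of the 60 members passed the filter through 12-week libraries alone, and of these Hist1h2bq and Hist1h2br were called.

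Hist1h1c, a linker histone gene, was at 8.84, 6.77 and 7.25 FPKM in control P5 and at 67.1, 64.1 and 87.7 in control 12 weeks, with no overlap. Its mean rose from 7.62 ± 1.08 to 73.0 ± 12.8, a ratio of 9.57 (log2 difference 3.09 ± 0.19 SE, limma adjusted p = 1.76e-08). Hist1h2bc was at 25.7, 23.2 and 25.1 at P5 and at 102, 135 and 116 at 12 weeks, groups that lay far apart. Its mean rose from 24.7 ± 1.31 to 118 ± 16.9 (2.20 ± 0.31 SE, limma adjusted p = 0.000129). Hist1h1d, another linker histone gene, rose from 1.04 ± 0.610 to 13.5 ± 1.70 (2.86, limma adjusted p = 0.00978). Hist2h2be, the third of the members known for polyadenylated forms, was at 7.12, 6.52 and 6.42 and then at 10.6, 7.83 and 11.7 FPKM. Its groups did not overlap, and its difference of 0.51 did not pass (limma adjusted p = 0.270).

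Among the H2B genes, Hist1h2bg was at 6.04, 3.27 and 4.01 FPKM at P5 and at 31.0, 30.7 and 37.0 at 12 weeks (log2 difference 2.67, limma adjusted p = 0.00197). Hist1h2bj was at 2.26, 3.77 and 1.82 and then at 19.4, 22.1 and 15.8 (2.50, limma adjusted p = 1.95e-05). Each adult library of both genes lay several times above each P5 library. Hist1h2ba, known as the testis form of H2B, rose by 2.16 and Hist1h2bh by 2.06 on the log2 scale. Hist1h2bq rose from 0.781 ± 0.125 to 7.04 ± 1.49 FPKM and Hist1h2br from 1.04 ± 0.139 to 7.10 ± 1.10 (log2 differences 2.16 and 1.98). These last 2 have the same coding sequence, and 2.68% and 11.3% of their 50-base words are their own, so they may report the same reads. Hist2h2ab, an H2A gene, rose by 2.02. Hist1h1c, Hist1h1d, Hist1h2bg, Hist1h2bj, Hist1h2bc, Hist1h2ba, Hist1h2bq, Hist1h2bh, Hist2h2ab and Hist1h2br are the 10 members with the largest differences among those called.

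The remaining called members were 8 H2B genes, Hist1h1e, 2 H2A and 4 H4 genes. The 8 H2B genes, Hist1h2bb, Hist1h2be, Hist1h2bf, Hist1h2bk, Hist1h2bl, Hist1h2bm, Hist1h2bn and Hist1h2bp, had log2 differences of 1.51 (Hist1h2bm) to 1.83 (Hist1h2bb) and means of 6.68 to 23.1 FPKM at 12 weeks. Hist1h2bp, for example, was at 1.85, 2.25 and 2.65 FPKM at P5 and 8.79, 10.7 and 10.04 at 12 weeks, and all adult libraries of these 8 genes lay above those of P5. Among linker histones Hist1h1e was at 1.85, 2.17 and 0.713 and then 8.45, 5.01 and 9.05 (log2 difference 1.74, limma adjusted p = 0.00335). The 4 H4 genes were Hist1h4n (1.85), Hist1h4h (1.60), Hist1h4b (1.23) and Hist1h4a (0.94). Hist1h4n was at 3.90, 2.08 and 1.83 FPKM and then 8.18, 11.3 and 16.6, with its groups apart. Of the H2A genes Hist2h2aa1 rose by 1.58, from 8.56 ± 3.85 to 26.4 ± 8.03 FPKM, and Hist1h2ab by 0.94, with overlapping groups. Hist1h4n shares its coding sequence with Hist1h4m and Hist2h2aa1 with Hist2h2aa2, and 14.4% and 10.8% of their 50-base words are their own. The 4 members that were lower at 12 weeks on the log2(FPKM + 1) scale were Hist2h4, Hist1h3g, Hist1h2ao and Hist1h3e. They had means of at most 1.04 FPKM at P5 and adjusted p of 0.745 or more (limma).

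Over the 46 members with means of at least 1 FPKM at both ages, the ratio of 12 weeks to P5 had a median of 3.14 and a range of 1.41 to 12.9. It had a median of 9.57 over 3 H1 genes, 4.33 over 17 H2B genes, 2.97 over 10 H4 genes, 2.12 over 14 H2A genes and 2.14 over 2 H3 genes. The 3 Hist3 genes had ratios of 1.41 to 1.63, against medians of 3.96 over 38 Hist1 and 2.39 over 5 Hist2 genes. Without Hist3, Hist1h1c and Hist1h2bc the summed level of the remaining 63 members was still 3.43 times as high at 12 weeks. The calls were spread over all kinds of annotated 3′ end, with 7 of 20 tested members that continue 100 or more bases past the stem-loop, 11 of 21 that end sooner and 7 of 19 without a match. Outside Hist3 the summed means went from 51.5 to 228 FPKM in the first, from 56.5 to 210 in the second and from 63.2 to 230 in the third of these sets. They were also spread over sequence uniqueness, with 14 of 32 members at 50% or more of unique 50-base words and 11 of 28 below.

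VPA libraries gave the same direction for most members, with 56 of 60 higher at 12 weeks, without sharing a sample with the controls. In both arms, however, the 12-week libraries had fewer genes above 0 than those of P5. Their median coefficient of variation over all genes was 25.2% and 26.4% (control and VPA), against 7.0% and 6.9% at P5. Age and these traits of the libraries cannot be told apart in either arm. Between VPA P5 and VPA 12 weeks 38 of 60 members rose and 0 fell, where 9.15% of all genes rose and 8.76% fell. The 38 held 23 of the 25 called in controls, and the calls comprised 17 of 18 H2B, 9 of 12 H4, 9 of 16 H2A, 2 of 4 H1 and 1 of 10 H3 genes tested. The rises of Hist1h1d and Hist2h2ab, among the 10 largest in controls, were not repeated with VPA, where their groups overlapped. Hist1h1d was at 0.702, 0.334 and 0.384 FPKM in VPA P5 and 2.71, 0.266 and 0 in VPA 12 weeks. Hist2h2ab was at 0.488, 0.324 and 0.933 and then 0.869, 0.323 and 2.42. Hist1h1c rose from 7.60 ± 0.871 to 66.1 ± 6.31 (log2 difference 2.96, limma adjusted p = 2.73e-08) and Hist1h2bc from 19.6 ± 1.06 to 103 ± 19.7 FPKM (2.32, limma adjusted p = 5.38e-05). The H4 gene Hist1h4a, with a stem-loop form of its own among the members, rose from 0.326 ± 0.284 to 4.64 ± 0.775 FPKM (2.11, limma adjusted p = 3.34e-05), so that its difference was larger than the 0.94 of the controls. The test of that difference is given with the interactions.

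**Figure D2:**
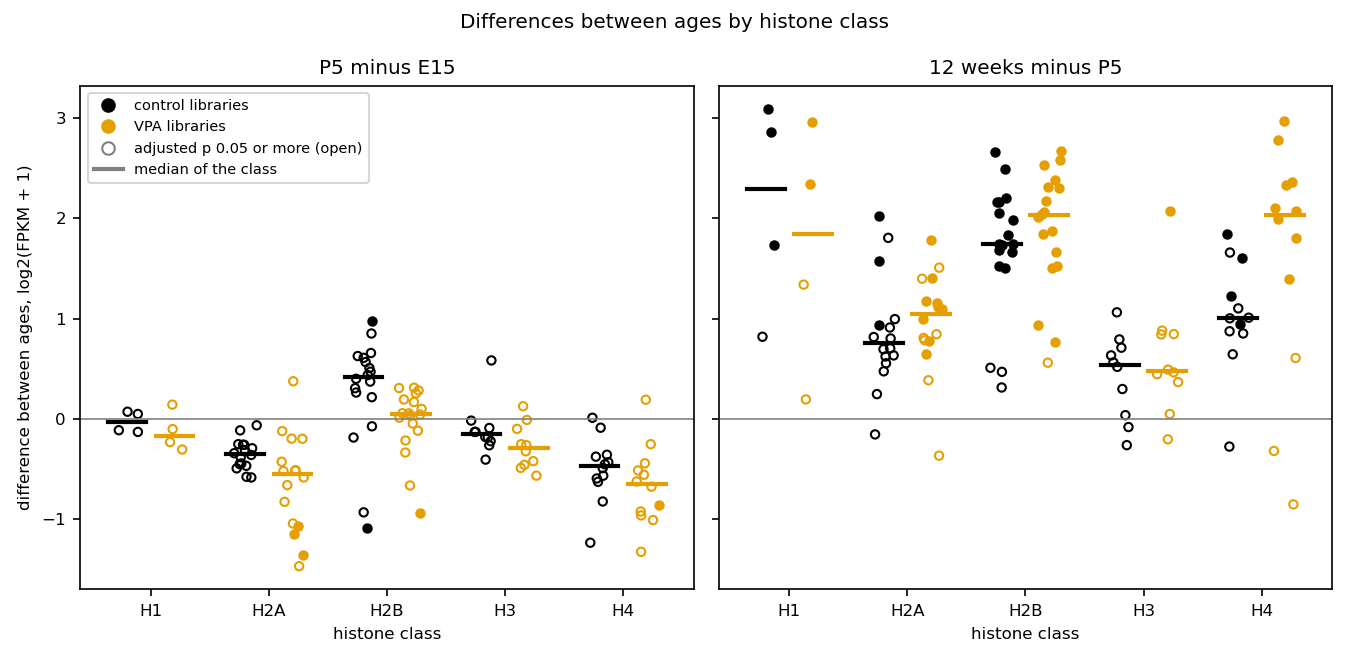
Differences between ages of each tested member, on the log2(FPKM + 1) scale, by class, for P5 minus E15 (left) and 12 weeks minus P5 (right), in control (black) and VPA libraries (orange), where filled points passed an adjusted p of 0.05 and bars are class medians. The H2B points of the controls lie mostly above 0 on the left, 14 of 18, where the 16 H2A points lie below it, and 15 of 18 H2B points on the right are filled.

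The adult libraries also held more RNA of vessel cells and of the oligodendrocyte lineage. All 5 pericyte markers rose between control P5 and control 12 weeks (Vtn by 5.71, Abcc9 by 2.89 on the log2 scale), as did all 5 endothelial markers (Cldn5 by 5.18, Pecam1 by 3.13) and 5 of 6 markers of the oligodendrocyte lineage (Cspg4 by 2.64). The summed pericyte level was 87.2 to 104 FPKM at P5 and 918 to 2083 at 12 weeks, and the endothelial sum 2.36 to 5.07 and 97.6 to 270. None of these markers was at 0 throughout a group. Of 5 astrocyte markers 1 rose and 3 fell, of 5 microglia markers 2 rose, of 7 neural stem and progenitor markers Fabp7 and Vim fell, and of 4 red cell genes 3 fell. The part of these cells in the histone levels was not tested. In such sorted bulk samples, fewer cells of a type and less RNA per cell cannot be told apart.

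Genes of the cell cycle did not move with the histone genes between P5 and 12 weeks. Of 24 S phase genes, which encode replication factors and enzymes of nucleotide synthesis, 10 were higher and 14 lower and 0 passed the test in controls (limma), where 3 genes, all lower, had an unadjusted p under 0.05. All 10 mitosis genes were lower and 2 fell, Mki67 by 0.88 and Ccna2 by 1.33. Slbp itself was at 25.0 ± 1.59 FPKM in control P5 and 19.5 ± 4.22 in control 12 weeks (log2 difference -0.37, limma adjusted p = 0.405). Of the other genes for histone mRNA 3′ end formation and histone gene transcription, Ncbp1, which encodes a cap-binding protein, fell by 0.44, and the list of 14 had 3 higher and 11 lower. Among 8 polyadenylation genes Cpsf6 fell by 0.47, and among 10 histone chaperone genes Hira, whose product deposits H3.3 outside replication, fell by 0.66. Of 11 replication-independent histone genes, H3f3b, which encodes H3.3, rose by 0.43, while H2afz (H2A.Z) fell by 0.36 and Cenpa, the centromeric H3, by 0.81. The summed level of these 11 was 1450 ± 113 at P5 and 1532 ± 99.1 at 12 weeks, within the spread between libraries.

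**Figure D3:**
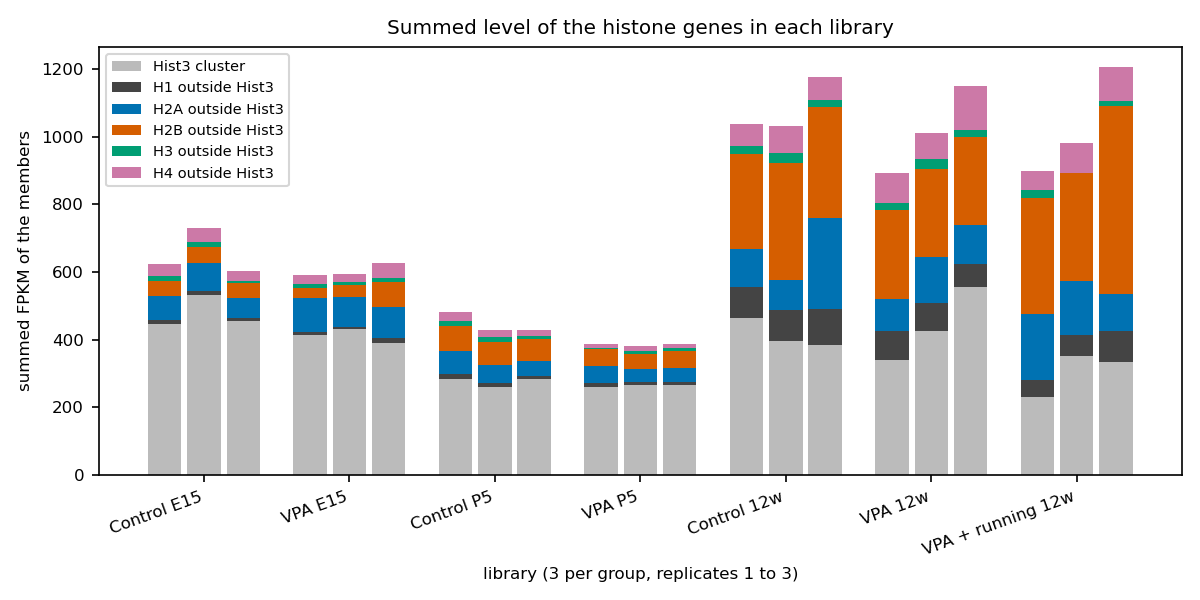
Summed FPKM of the 68 members in each of the 21 libraries, split into the Hist3 cluster (grey) and the 5 classes outside it. The grey share shrinks from E15 to 12 weeks, and H2B genes outside Hist3 are the largest of the 5 classes in all 9 libraries at 12 weeks.

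From E15 forebrain to P5 dentate gyrus the classes parted. In control libraries 18 of the 60 members tested were higher and 42 lower at P5, where 37.6% of all genes were lower. All 16 H2A genes tested were lower, as were 11 of 12 H4 and 9 of 10 H3 genes, while 14 of 18 H2B genes were higher and H1 was even at 2 and 2. Class medians were -0.35 for H2A, -0.47 for H4, -0.16 for H3 and 0.42 for H2B on the log2 scale. Every H2A gene overlaps a gene on the opposite strand, and of the H2B genes Hist2h2bb alone does. The median share of a member's own 50-base words was 27.0% for H2A and 59.9% for H2B. The part of these limits of counting in the class difference was not tested. Under another scaling of the libraries, by median of ratios, all 12 H4 and all 4 H1 genes were lower and the counts for H2A, H2B and H3 were the same. The calls over all genes went from 2110 higher and 928 lower to 1818 and 1313. That scaling moved the median of all genes from 0.14 to 0.05. Few of these differences passed the test: 1 member rose and 1 fell, where 14.4% of all genes rose and 6.33% fell. By groups that did not overlap, 10 members were higher and 9 lower, where the same held for 44.3% and 22.1% of all genes.

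Hist3h2ba was the member that fell. Its lowest control E15 library, at 233 FPKM, lay above its highest control P5 library, at 130, and its mean fell from 260 ± 30.2 to 121 ± 10.6 (log2 difference -1.09 ± 0.20 SE, limma adjusted p = 0.000624). The VPA libraries showed it too, at 240, 243 and 214 and then 115, 126 and 119 FPKM (-0.94, limma adjusted p = 0.00234). Hist1h2bc was the member that rose, from 11.3, 15.2 and 10.2 to 25.7, 23.2 and 25.1 FPKM (0.97 ± 0.31 SE, limma adjusted p = 0.0335). In controls this call was lost with median of ratios scaling and on leaving out any control library of either age other than E15 replicate 2. In the VPA libraries its values were 8.89, 12.1 and 34.9 at E15, where the highest is the library with the choroid plexus signal, and 20.4, 18.4 and 20.1 at P5 (0.31, limma adjusted p = 0.613). Without that library Hist1h2bc rose among VPA libraries as well (0.86, limma adjusted p = 0.00299). Hist1h2br, next in order of p, was at 1.04 against 0.381 FPKM (0.57, limma adjusted p = 0.0745).

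In VPA libraries 16 members were higher and 44 lower at P5 than at E15, where 38.3% of all genes were lower, with 0 rising and 5 falling, where 13.8% of all genes rose and 5.97% fell. Beside Hist3h2ba these were 3 H2A genes, Hist1h2ai (-1.36, limma adjusted p = 0.00697), Hist1h2an (-1.07, limma adjusted p = 0.0190) and Hist1h2ag (-1.15, limma adjusted p = 0.0289), and Hist1h4a (-0.86, limma adjusted p = 0.0297). H2A genes were again lower, 15 of 16, and 12 of 18 H2B genes were higher, with a median of 0.05. The median of all genes was 0.13, so H2B genes did not stand above all genes in the VPA libraries. Without the choroid plexus library 14 of 16 H2A genes were lower and 13 of 18 H2B genes higher, with medians of -0.65 and 0.16, where that of all genes was 0.14. In that run 4 of the 5 falls held, Hist1h4a being the exception. S phase genes went the other way from most members in controls: all 24 were higher at P5 and 9 rose, among them Mcm6 by 1.04 and Cdt1 by 1.17, and their sum was 358 ± 59.0 at E15 and 535 ± 20.1 at P5. All 10 mitosis genes were higher and 2 rose, Cenpf by 0.87 and Mki67 by 0.74. Slbp was at 17.4 ± 1.48 and 25.0 ± 1.59 FPKM (0.50, limma adjusted p = 0.192). Lsm11, a subunit of the U7 ribonucleoprotein that cuts histone pre-mRNA, fell by 1.34, Ncbp1 fell by 0.37 and Cstf2, a 3′ end cleavage factor, rose by 0.43. Of the replication-independent histones H2afy2 fell by 0.82 and H1fx by 0.80, and Cenpa rose by 0.77. Among 8 polyadenylation genes Pcf11 rose by 0.61. Markers of other cells differed widely between these samples. All 6 oligodendrocyte lineage markers (Sox10 by 4.62, Pdgfra by 4.67), all 5 astrocyte markers (Aqp4 by 5.19, Gfap by 6.16), 4 of 5 pericyte markers, 3 of 4 red cell genes and 5 of 7 neural stem and progenitor markers rose. Of 5 neuron markers 3 fell and 1 rose, with a summed level of 574 to 671 FPKM at E15 and 282 to 343 at P5. Their part in the histone levels was not tested.

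The parting of H2A and H2B was also laid out by gene pair. These are the same genes and libraries as in the class counts, so the pairs are not a separate test of it. In 13 places an H2A and an H2B gene lie head to head, with starts 173 to 306 bases apart and transcription running away from a shared promoter region, such as the one printed for Hist1h2ac. For 12 of these pairs both genes were tested between control E15 and control P5, and the H2B gene had the higher difference in 11. In 9 of the 12 the H2A gene was lower and the H2B gene higher at P5. The medians were -0.33 for the H2A and 0.45 for the H2B partners. Each H2A gene of these pairs overlaps a gene on the opposite strand, and no H2B partner does. The part of this overlap in the difference was not tested. The partner of Hist3h2a among these is the processed pseudogene Hist3h2bb-ps. Those of Hist1h2ao and Hist1h2ap, which are Hist1h2bq and Hist1h2br, have the same coding sequence. Hist1h2ac was at 4.64, 4.90 and 4.31 FPKM in control E15 and 4.35, 3.80 and 2.24 in control P5 (log2 difference -0.36), beside 0.97 for Hist1h2bc. Its groups overlapped, and those of Hist1h2bc did not. From P5 to 12 weeks the H2B partner had the higher difference in 10 of 12 pairs, with medians of 0.66 for H2A and 1.75 for H2B. The control P5 libraries are in both comparisons.

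**Figure D4:**
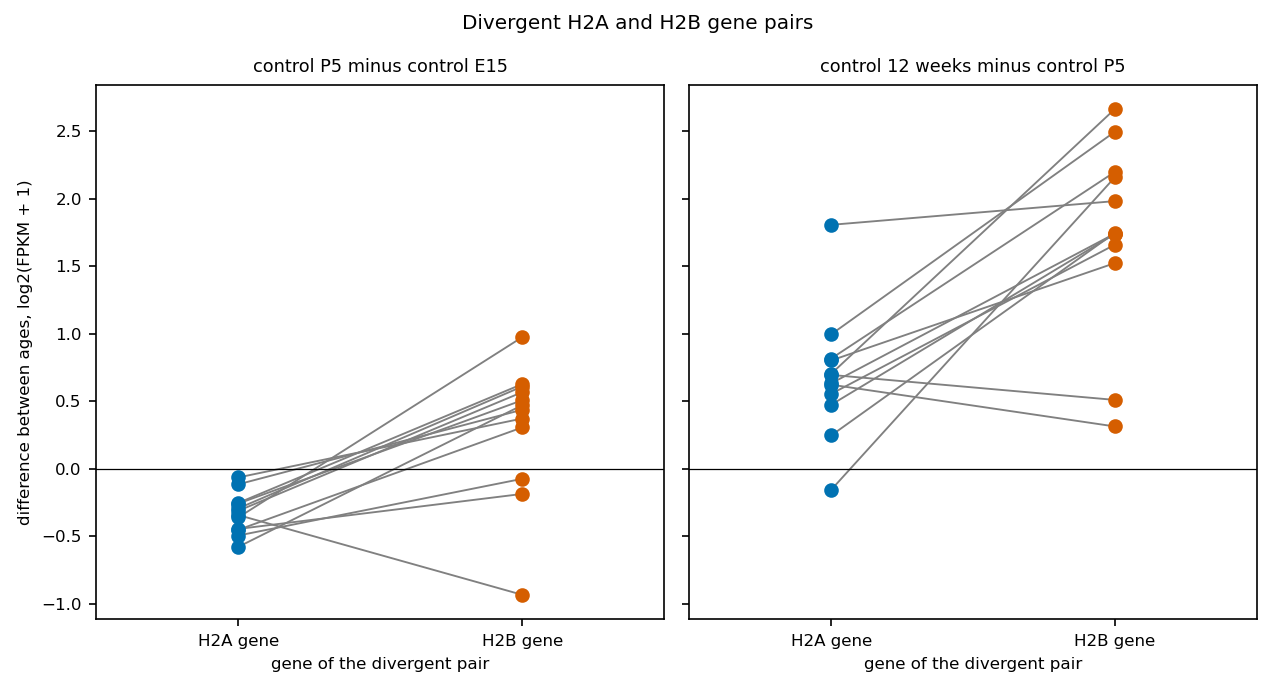
Differences between ages, on the log2(FPKM + 1) scale, of the H2A and the H2B gene of each of the 12 head-to-head pairs with both genes tested (1 line per pair), for control P5 minus control E15 (left) and control 12 weeks minus control P5 (right). Lines climb from H2A to H2B in 11 pairs on the left and in 10 on the right.

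At P5, histone transcripts were lower in mice exposed to VPA before birth than in controls. The members outside Hist3 summed to 198, 170 and 146 FPKM in the control and 126, 116 and 123 in the VPA libraries, which did not overlap, with means of 171 ± 25.8 and 122 ± 4.78. The Hist3 cluster differed far less, with a ratio of summed means of 0.957. Of the 45 members tested in the fit of these 6 libraries 41 were lower and 4 higher, where 50.9% of all 13328 genes tested were lower. By class 2 of 2 H1, 12 of 14 H2A, 14 of 16 H2B, 2 of 2 H3 and 11 of 11 H4 genes were lower, and these counts were the same under both alternative scalings. The filter could be met by the controls alone, and such members can only count as lower. Among them were Hist1h4a, Hist1h4b and Hist1h4c, which were below 1 FPKM in every VPA library. In 35 members, 5 of them H4 genes, both groups had means of at least 1 FPKM. Their ratio of VPA to control had a median of 0.730 and a range of 0.431 to 1.16. The median log2 difference was -0.33, and that of all genes was -0.0040. The test called 3 members lower and 0 higher (limma, adjusted p under 0.05), where 1.34% of all genes were called lower and 0.9% higher. At an unadjusted p under 0.05, 20 members were lower and 0 higher, where the shares of all genes were 12.5% lower and 11.5% higher. In 18 members the VPA libraries all lay below the controls, where this held for 15.6% of all genes.

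Hist1h2be, an H2B gene at chr13:23583670-23621124 (-), was at 7.97, 5.61 and 5.40 FPKM in the controls and 3.31, 2.99 and 3.15 in the VPA libraries. It fell from 6.33 ± 1.43 to 3.15 ± 0.159 (log2 difference -0.80 ± 0.14 SE, limma adjusted p = 0.0411). Its annotated span overlaps the H1 gene Hist1h1e on the same strand. Hist1h2ai, an H2A gene at chr13:21716422-21716814 (+), was at 5.22, 4.87 and 4.12 and then 2.57, 2.18 and 1.43. It fell from 4.74 ± 0.560 to 2.06 ± 0.580 (-0.92 ± 0.16 SE, limma adjusted p = 0.0411). Hist1h2bn, an H2B gene at chr13:21754123-21754503 (+), was at 2.43, 2.99 and 1.97 and then 1.01, 0.502 and 0.962, a fall from 2.46 ± 0.512 to 0.823 ± 0.279 (-0.93 ± 0.17 SE, limma adjusted p = 0.0429). In each of these 3 genes the groups were apart. In Hist1h2ai and Hist1h2bn 15.4% and 13.6% of the 50-base words are their own, so near-identical copies may share their reads.

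These calls were weakly held. Leaving out VPA replicate 2, VPA replicate 3, control replicate 1 or control replicate 2 left 0 calls, leaving out VPA replicate 1 left 3 and leaving out control replicate 3 gave 4. Over all genes, where 120 were called higher and 178 lower, the first 2 of these runs left 3 and 29, and 42 and 65. The next 2 left 4 and 19, and 1 and 17, and the last 2 gave 273 and 270, and 205 and 295. With the replicate number as a block 1 call was left, where all genes had 20 higher and 50 lower. With small RNA genes taken out and the libraries rescaled there were 9, which held all 3. That rescaling took the calls over all genes from 120 higher and 178 lower to 394 and 360. The direction was held more widely: on leaving out each library in turn 42 of 45, 38 of 44, 37 of 42, 29 of 38, 35 of 39 and 38 of 41 members tested were lower. The median of all genes lay between -0.0070 and -0.0028 in these runs. They share most of their libraries, so they are not separate tests of the direction. Hist1h2bc did not pass at 24.7 ± 1.31 against 19.6 ± 1.06 FPKM (-0.32, limma adjusted p = 0.0563), with its groups apart. Hist1h1c was at 7.62 ± 1.08 against 7.60 ± 0.871, a difference far within the spread between libraries. The H4 class summed to 27.3, 22.2 and 19.3 FPKM in the controls and to 12.6, 14.6 and 13.5 in the VPA libraries. Hist1h4b, for example, was at 1.38, 1.84 and 1.67 against 0.696, 0.154 and 0.711 FPKM. No H4 gene passed the test in the fit of the 6 libraries.

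**Figure D5:**
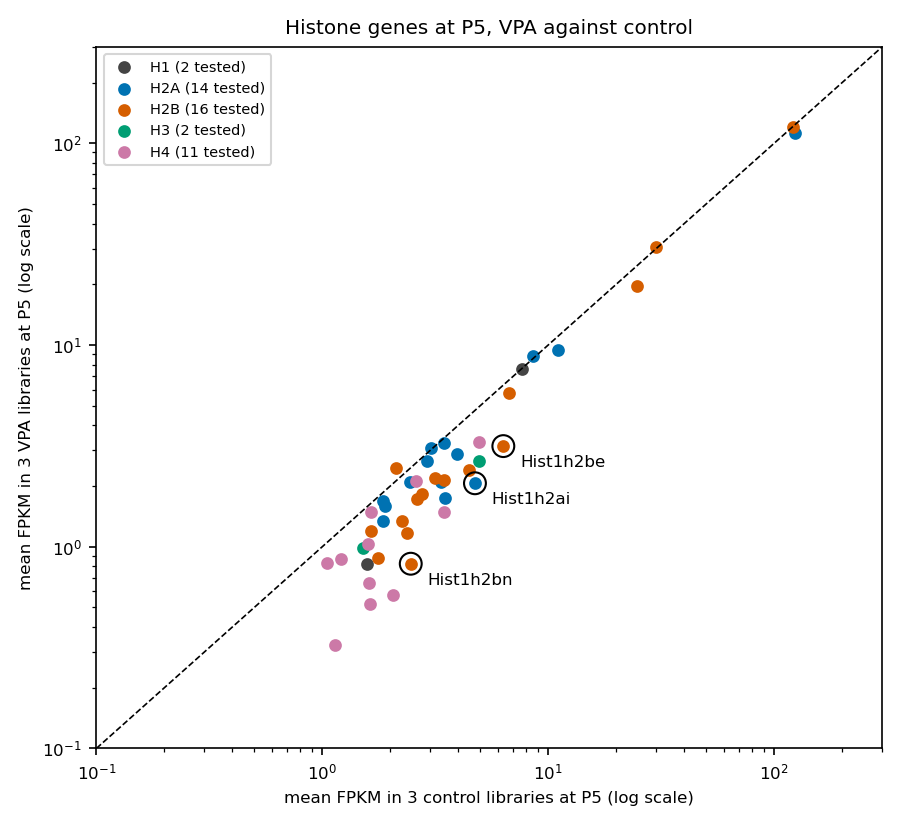
Mean FPKM of each of the 45 members tested at P5 in the 3 VPA libraries (vertical, log scale) against the 3 control libraries (horizontal, log scale), coloured by class, with the line of equal levels dashed and the 3 called members circled and named. Of the 45 points 41 have a lower level with VPA on the log2 scale, and Hist3 genes at the top right lie close to the line.

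Cell cycle genes were lower beside them. Of 24 S phase genes 23 were lower and 1 was higher with VPA at P5, of which Cdt1, a replication licensing factor, fell by 0.37 (limma adjusted p = 0.0441). All 10 mitosis genes were lower and Top2a fell by 0.60 (limma adjusted p = 0.0415). All 7 neural stem and progenitor markers were lower, with falls of 0.69 for Sox9 and 0.36 for Sox2. Markers of other cells moved too. All 5 pericyte markers were higher and 2 rose, Vtn by 1.33 and Pdgfrb by 1.0, with a summed level of 87.2 to 104 FPKM in controls and 136 to 253 with VPA. All 4 red cell genes measured were lower, and Hba-a1 fell by 1.98 and Alas2 by 1.30, with sums of 727 to 1033 and 92.7 to 396. All 5 neuron and all 4 microglia markers tested were higher, none past the test. No marker of these lists was at 0 throughout a group, and their part in the histone levels was not tested. Slbp was at 25.0 ± 1.59 and 21.2 ± 4.05 FPKM (-0.24, limma adjusted p = 0.288). None of the other genes for histone mRNA 3′ ends, polyadenylation, histone chaperones or replication-independent histones passed, and these 4 lists had 5 higher and 8 lower, 3 and 5, 3 and 7, and 3 and 8.

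At E15, 1 day after the last dose, no member passed the test between VPA and control. Of the 48 members tested 23 were higher and 25 lower, where 52.6% of all genes were lower. The members' median was -0.09 and that of all genes -0.01. Called shares of all 12345 genes were 0% higher and 0.0405% lower. At an unadjusted p under 0.05, 3 members were higher and 5 lower, where 5.18% and 5.36% of all genes were. By groups apart 2 were higher and 6 lower, where 8.19% and 9.32% of all genes were. H2A genes were higher in 11 of 15, H2B genes lower in 10 of 15 and H4 genes lower in 7 of 12. Without the VPA library with the choroid plexus signal 16 members were higher and 29 lower of 45 tested, with 10 of 12 H4 and 11 of 14 H2B genes lower and 0 calls. The median of all genes was -0.0099 in that run, which was chosen after its library was seen to stand apart.

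The lowest p at E15 belonged to Hist1h4b, an H4 gene at chr13:23757013-23757409 (+). It was at 3.08, 3.22 and 2.62 FPKM in controls and 1.21, 1.28 and 1.45 with VPA, groups that lay well apart (2.97 ± 0.312 and 1.31 ± 0.127, log2 difference -0.78 ± 0.12 SE, limma adjusted p = 0.195). Hist4h4, the single gene of its cluster, was at 1.07, 1.85 and 1.22 against 0.316, 0 and 0 (-1.11, limma adjusted p = 0.294). Hist1h2ap was at 14.3, 13.8 and 10.8 against 34.4, 30.6 and 20.6 (1.06, limma adjusted p = 0.343). The groups did not overlap in any of the 3, and none passed. At P5 Hist1h4b was among 5 of 11 H4 genes tested whose VPA libraries all lay below the controls, where 15.6% of all genes did. Its values at P5 are given above.

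At 12 weeks no member, and none of 13847 genes, passed in any of the 3 comparisons among control, VPA and VPA with running (limma, 57 members tested, background 0% in each direction). Between VPA and control 25 members were higher and 32 lower with a median of -0.10, where 50.7% of all genes were lower. At an unadjusted p under 0.05 there were 0 higher and 2 lower, where 3.27% and 3.12% of all genes were. The 2 were Hist1h1d, at 14.0, 14.9 and 11.6 FPKM in controls and 2.71, 0.266 and 0 with VPA (log2 difference -3.11 ± 0.88 SE, limma adjusted p = 0.557), and Hist2h2ab, at 5.6, 6.50 and 6.42 against 0.869, 0.323 and 2.42 (-1.81, limma adjusted p = 0.577). Both had groups well apart. In a fit of all 21 libraries, which shares 1 estimate of the spread over all groups, both passed the threshold, where 283 of all genes passed upward and 250 downward. Hist1h3e, next by p, was at 2.06, 0.596 and 0 against 7.55, 0.711 and 7.30 (1.55, limma adjusted p = 0.772).

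With running, compared with VPA alone, 28 members were higher and 29 lower, where 54.2% of all genes were lower. At an unadjusted p under 0.05, 5 were higher and 2 lower, where 4.67% and 6.64% of all genes were. H2B genes leaned one way, with 16 of 18 higher and a median of 0.48, but this rested in part on running replicate 3, the library with the fewest genes above 0. Without it 13 of 18 were higher and the median was 0.25. The summed H2B level outside Hist3 was 262 ± 2.52 FPKM with VPA and 406 ± 131 with running. Hist1h2bl was at 10.6, 11.8 and 12.5 FPKM with VPA and 16.8, 21.6 and 36.7 with running (0.97, limma adjusted p = 0.304). Hist1h2bn was at 4.35, 6.32 and 9.99 against 8.62, 19.4 and 27.2 (1.23, limma adjusted p = 0.338), and Hist1h3e at 0.167, 0 and 0 with running (-2.23, limma adjusted p = 0.293). The first and the last had groups apart from VPA alone, and Hist1h2bn overlapped. Every Hist1 H3 gene was at 0 in running replicates 2 and 3, so those zeros were not particular to Hist1h3e. Against control, 23 members were higher and 34 lower with running, where 55.9% of all genes were lower. With small RNA genes removed the split was 27 and 30. There were 2 and 4 at an unadjusted p under 0.05, where 3.07% and 4.69% of all genes were. The 3 lowest p were for Hist2h2ab (-1.97, limma adjusted p = 0.612), Hist1h2bl (0.85, limma adjusted p = 0.619) and Hist1h1d (-2.15, limma adjusted p = 0.624). The 3 comparisons share groups and are not independent. S phase genes were lower in 20 of 24 with VPA than in controls and higher in 20 of 24 with running than with VPA alone, none past the test, with sums of 513 ± 75.9, 423 ± 43.8 and 622 ± 19.9 FPKM in control, VPA and running. The pericyte sums were 1561 ± 591, 804 ± 150 and 1019 ± 378 and those of the oligodendrocyte lineage 793 ± 56.6, 1132 ± 240 and 605 ± 21.5. Their part in the histone levels was not tested.

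Whether the VPA difference itself changed with age was tested as an interaction. Between E15 and P5 no member passed, where 0.0136% of all genes passed upward and 0.0818% downward, and the VPA difference was lower at P5 in 46 of 60 members, where this held for 49.2% of all genes. At an unadjusted p under 0.05, 1 was higher and 1 lower, where 0.784% and 1.15% of all genes were. The lowest p was that of Hist1h2ai (-1.11, limma adjusted p = 1). Between P5 and 12 weeks no member passed either, where 0.252% passed upward and 0.136% downward. At an unadjusted p under 0.05, 5 were higher and 2 lower, where 4.95% and 5.59% of all genes were. The VPA difference was higher at 12 weeks in 42 of 60 members, where this held for 50.1% of all genes. The lowest p were those of Hist1h4a (1.16, limma adjusted p = 0.246), Hist1h3e (2.16, limma adjusted p = 0.255) and Hist2h2ab (-1.64, limma adjusted p = 0.281). The fall called at P5 is thus not shown to be particular to that age.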

How the data were processed

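Poly(A) RNA of sorted cells was sequenced by the authors. Per the submitters' processing notes they used TopHat, Bowtie2, Cufflinks and Cuffdiff with mm10, in versions not given in the sources used here. Deposited values are FPKM, 1 per gene symbol and library, named so per the file headers at 12 weeks and inferred at E15 and P5 from the same genes, range and column sums. Column sums near each other do not show depth. All 21 sample columns were used.

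The members and all gene lists were chosen with earlier results of these data known. Log2(FPKM + 1) was analysed with limma 3.58.1 in R 4.3.3 (lmFit, eBayes with trend) for genes that reached 1 FPKM in 3 or more of the libraries fitted, and p was Benjamini-Hochberg adjusted over all genes tested, threshold 0.05. A difference on this scale understates changes of low genes. VPA was compared within an age (6, 6 and 9 libraries), and ages and interactions in 1 fit of 21. Whether replicates came from separate litters is not stated, so p-values may measure technical spread.

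Named members were those past the threshold (the 10 with the largest differences where more passed), the 3 lowest p per comparison, the 3 highest levels per class, and Hist1h1c, Hist1h2bc and Hist2h2be. Of a list, up to 2 called genes per direction were named, and Slbp. One such gene is not reported here. Other members named (such as Hist1h2ac, Hist1h2ab, Hist1h2ao, Hist1h2bp, Hist1h4h and Hist1h4b at P5) were chosen after their values were seen. Same-numbered libraries deviated together at E15 (r = 0.126, 0.115 and 0.228) and did not meet that mark at P5 or 12 weeks. At most 0.0122% of nonzero values were identical between 2 libraries.

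Alternatives were median of ratios scaling, removal of small RNA genes, a pseudocount of 0.1, the filter left out or set at 5 FPKM, no trend, a replicate block, other sets of libraries and leaving out each library. VPA in place of control libraries between ages, with or without VPA E15 replicate 3, was added after seeing the data. Stem-loops, promoters and unique 50-base words were found with Python 3.11.15. The code was tested on simulated data.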

Additional observations from a re-analysis of the deposited data

Results flagged for a closer look

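In 3 H4 genes all VPA libraries lay below the controls at a younger age and above them at 12 weeks. From P5 to 12 weeks this turn was seen in 3 of 60 members tested (5%) and in 160 of 14662 genes (1.09%), and the opposite turn in 0 members and 215 genes (1.47%). From E15 to 12 weeks it was seen in 1 member and 58 genes (0.396%). Hist1h4a was at 1.01, 1.35 and 1.04 FPKM in control P5 and 0, 0.454 and 0.522 in VPA P5, and at 2.66, 3.79 and 2.92 in control 12 weeks and 3.94, 4.52 and 5.47 in VPA 12 weeks, a log2 difference of 0.45 at 12 weeks. At E15 it was at 2.01, 1.89 and 1.86 in controls and 1.77, 0.835 and 1.63 with VPA, so the same turn held against 12 weeks (0.45). Hist1h4c was at 2.47, 2.63 and 1.08 against 0.332, 0.884 and 0.508 at P5 and at 4.02, 4.61 and 4.48 against 7.10, 6.81 and 7.12 at 12 weeks (0.58). Hist1h4j was at 3.79, 3.54 and 3.0 against 0.510, 2.38 and 1.56 at P5 and at 8.09, 8.49 and 7.21 against 13.3, 9.12 and 10.7 at 12 weeks (0.42). The difference between P5 and 12 weeks was tested over all genes and did not pass for any of the 3 members, with Hist1h4a at an adjusted p of 0.246 (limma). The difference between E15 and 12 weeks was not tested.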

How the results depend on the processing

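Counts are of members past the threshold unless said otherwise. For VPA against control at P5, the 3 lower calls became 0 with no filter, 1 with a filter at 5 FPKM, 9 with small RNA genes removed, 1 with a replicate block and 0 in a fit of all 21 libraries, and ran from 0 to 4 on leaving out 1 library. Over all genes the 178 lower calls became 31, 136, 360, 50 and 13 in these settings, and ran from 17 to 295. The median of -0.33 was -0.10 with a filter at 5 FPKM. The same-numbered libraries were shown to deviate together at E15 alone, and the block changed no other count of calls at any age. In the fit of all 21 libraries the 0 calls at 12 weeks became 2 lower for VPA against control (all genes 283 higher and 250 lower), 2 higher and 1 lower for running against VPA (710 and 988) and 2 lower for running against control (363 and 523). The median for running against control was 0.042 with a filter at 5 FPKM and ran from -0.20 to 0.019 on leaving out 1 library, with 0.019 without control replicate 3. Between control E15 and P5, the 1 higher call became 2 with a pseudocount of 0.1, with no filter or with no trend, 0 with median of ratios scaling, 8 in a fit of only the groups compared (all genes from 2110 to 5265), 0 in VPA libraries and 0 to 1 on leaving out 1 library. The 1 lower call became 2 with a pseudocount of 0.1, 9 in the fit of only the groups compared (all genes from 928 to 2768), 5 in VPA libraries and 4 in VPA libraries with VPA E15 replicate 3 left out. The median of -0.19 was -0.33 with a pseudocount of 0.1 and -0.32 in VPA libraries, and ran from -0.32 to -0.054 on leaving out 1 library. Between control P5 and 12 weeks, the 25 higher calls became 38 in VPA libraries and ran from 21 to 26 on leaving out 1 library, and 1 lower call appeared with no filter. The median of 0.97 was 1.38 with a pseudocount of 0.1, 1.58 with a filter at 5 FPKM and 1.40 in VPA libraries, and ran from 0.87 to 1.19. For the interaction of E15 and P5, 1 lower call appeared with no filter and 1 higher call in the fit of only the groups compared, and the median of -0.26 ran from -0.34 to -0.090, the last without VPA E15 replicate 3. For that of P5 and 12 weeks, 1 higher call appeared with no filter and, on leaving out 1 library, 0 to 1 (1 without VPA 12 weeks replicate 2). Its median of 0.19 was 0.31 with a pseudocount of 0.1 and ran from 0.13 to 0.34. The cause was not tested for any of these. No value changed direction while called, and 373 other values of counts and medians held. The 3 libraries per group and the low FPKM of most members limit what could be called.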
